A study of Bos indicus with 55 samples.

Results

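The miRNAs miR-7, miR-375, miR-129 and miR-184, known from endocrine, nerve and surface epithelial cells, were followed in extracellular vesicles (EVs, membrane-bound particles shed by cells) from day 16 bovine conceptuses. They were taken by name, as the entries bta-miR-7, bta-miR-375, bta-miR-129, bta-miR-129-5p and bta-miR-184, which are 5 of the 1024 miRNA entries in the count table and 5 of the 655 with a count. A conceptus is the embryo together with its developing membranes, and its EVs were collected from the medium in which it was cultured. The 28 EV libraries came from 12 nuclear transfer conceptuses (7 male, 5 female), 10 IVF conceptuses (3 male, 7 female) and 6 in vivo conceptuses (3 male, 3 female). Nuclear transfer places the nucleus of another cell in an egg without its own, IVF is fertilisation of the egg in culture, and in vivo conceptuses were conceived by artificial insemination. No strain, allele or agent beyond conceptus type and sex separates the groups in the labels, and the donor cells of nuclear transfer are not named there. By its title, the study asked whether the uterine lining senses a conceptus partly through the miRNAs its EVs carry.

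miRNAs are short RNAs that pair with messenger RNAs and lower their translation or stability. In mouse and human, miR-7 is abundant in neuroendocrine cells, pancreatic islets and brain, where the circular RNA CDR1as binds it. miR-375 is the characteristic miRNA of pancreatic islets, where it restrains insulin secretion, and it is also found in several epithelia. miR-129 is enriched in brain, and its 5p arm is made from hairpins at separate genes. miR-184 is best known from the corneal and lens epithelium. These are roles in adult tissues of other species, and the cells of the conceptus that release these miRNAs are not given in the labels.

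EV libraries held 39.3 k to 603.6 k counts (k, kilo), so that a miRNA with few counts carries a large counting error. Between 4.11 and 76.3% of the counts of a library went to only 2 entries, miR-2887 and miR-2904, and this share is given beside the results it moves with. No cell type is stated for the EVs. Of the epithelial miRNAs looked up (the miR-200 family, miR-141, miR-429, miR-203, miR-205, miR-31, miR-96, miR-182 and miR-183), 10 of 10 entries had a count. Of the nerve cell miRNAs 14 of 16 had one, miR-153 and miR-219b-3p being at 0 in every library. So had 8 of 8 entries of blood cells, 8 of 8 of muscle and 9 of 9 of mesenchyme and vessels. The same held for 6 of 6 of pluripotent cells and 1 of 1 of liver, beside 655 of 1024 in the whole table. A single count in any library is enough for this, so these numbers do not point to a cell type.

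Levels are given as CPM, the count relative to a library's total after TMM scaling, and the entries miR-129 and miR-129-5p are treated as 1 measurement. Their counts were the same in 11 libraries and differed by at most 28 counts in the other 17, for 25574 counts of miR-129 and 25473 of miR-129-5p in all, a difference of 0.395%. The entry miR-129-5p was never the higher. Below, miR-129 stands for both unless the arm is named.

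miR-7 was the most abundant of the 4 and ranked between 3rd and 41st among the entries of a library, with a median rank of 9. In nuclear transfer male EVs it stood at 84260.5, 19393, 45179, 42631, 12508, 49521 and 12062 CPM in replicates 1 to 7, and in nuclear transfer female EVs at 18628, 12531, 4283, 6989 and 13980 CPM in replicates 1 to 5. The 5 highest libraries of the type were male and the 2 lowest female, with the other males and females mixed between them. IVF male EVs held 52027, 49216 and 5928 CPM, and the 7 IVF female EVs ran from 3028 through a median of 34322 to 63017 CPM. In vivo male EVs held 20751, 20450 and 5459 CPM, against 48336, 2722 and 3502 CPM in in vivo female EVs. Both IVF sexes thus held libraries near the top and near the bottom, and 1 in vivo female library lay above all in vivo males. From the lowest to the highest of the 28 libraries, miR-7 varied 30.95-fold.

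miR-375 was a moderately abundant entry, with a median rank of 85.5 and 6 to 709 counts per library. Its level in nuclear transfer male EVs was 236, 730, 351, 193, 194, 83.1 and 662 CPM in replicates 1 to 7, against 1080, 494, 1329, 1410 and 857 CPM in nuclear transfer female replicates 1 to 5. All 7 males lay below the female median of 1080 CPM, and only female replicate 2 lay within the male range. IVF male EVs held 64.9, 77.9 and 694 CPM, and IVF female EVs ran from 107 through a median of 252 to 2058 CPM. In vivo male EVs held 477, 304 and 1165 CPM, and in vivo female EVs 521, 1757 and 1356 CPM. The lowest value of all came from an IVF male and the highest from an IVF female, 31.7-fold apart.

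miR-129 ranked between 16th and 114th. Nuclear transfer male EVs held 364, 3005, 1223, 1117, 3173, 1036 and 4018 CPM in replicates 1 to 7, and nuclear transfer female EVs held 5251, 3522, 16973, 14521 and 6088 CPM in replicates 1 to 5. The groups overlapped through female replicate 2 and male replicate 7 alone, and the 7 males lay below the female median of 6088 CPM. IVF male EVs held 260, 2414 and 6802 CPM, and IVF female EVs ran from 665 through a median of 1964 to 9071 CPM. In vivo male EVs held 903, 4212 and 12393 CPM, and in vivo female EVs 2482, 5880 and 4502 CPM. The in vivo male group thus reached both above and below the in vivo female group, and over all libraries miR-129 varied 65.4-fold.

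miR-184 had the lowest median level of the 4 and the widest spread, 482-fold between its lowest and highest library. In nuclear transfer male EVs it stood at 207, 69.2, 675, 200.4, 56.1, 22.2 and 72.8 CPM in replicates 1 to 7, and in nuclear transfer female EVs at 297, 10690, 279, 39.4 and 109 CPM in replicates 1 to 5. Female replicate 2 alone, with 865 counts, held 82.2% of the 1052 counts of its group, and the other 4 females lay within the male range. IVF male EVs held 195, 26.0 and 2564 CPM, and IVF female EVs ran from 68.2 through a median of 132.9 to 1813 CPM. In vivo male EVs held 516, 5193 and 213 CPM, and in vivo female EVs 4647, 1053 and 1578 CPM. The 3 in vivo females lay above the medians of both IVF groups and both nuclear transfer groups. Counts went down to 2 in 1 IVF male library, so the low values carry the largest counting error.

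**Figure D1:**
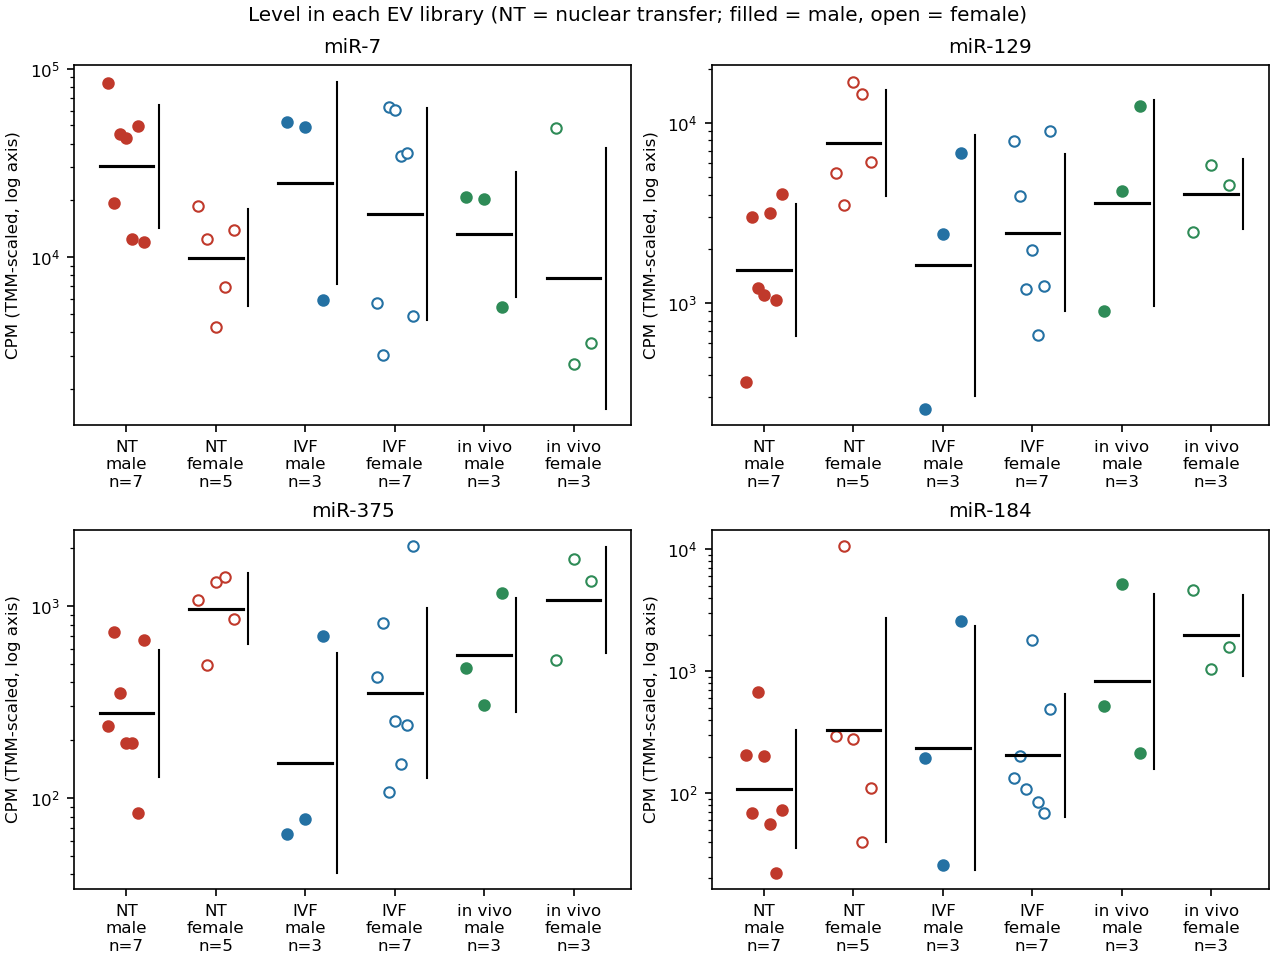
Level of miR-7, miR-129, miR-375 and miR-184 in CPM (TMM-scaled, log axis) in each of the 28 EV libraries, 1 point a library, by conceptus type and sex. The horizontal bar is the mean of the log2 values, drawn back on the CPM axis, and the vertical line beside each group its SD; miR-184 of nuclear transfer female replicate 2, at 10690 CPM, stands far above the rest of its group.

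Ordered by mean log2 CPM, miR-7 was highest in nuclear transfer males, followed by IVF males, IVF females, in vivo males, nuclear transfer females and in vivo females. For miR-375 the order was in vivo females, nuclear transfer females, in vivo males, IVF females, nuclear transfer males and IVF males. miR-129 was ordered as nuclear transfer females, in vivo females, in vivo males, IVF females, IVF males and nuclear transfer males, and miR-184 as in vivo females, in vivo males, nuclear transfer females, IVF males, IVF females and nuclear transfer males. In each of these orders every neighbouring pair overlapped in its values and lay closer together than the larger SD of the pair. Nuclear transfer males therefore stood at the top for miR-7 and at the bottom for miR-129 and miR-184, with no step between neighbours beyond the spread.

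Between conceptus types, none of the 4 miRNAs passed the test. edgeR's quasi-likelihood test was fitted to all 28 libraries, with p-values adjusted over the 240 entries that passed the filter on low counts, and a call is an adjusted p under 0.05. All 5 entries passed that filter. For nuclear transfer against in vivo EVs 0 of 5 entries were called, beside 0.417% of all entries tested, and 0 of the 5 had an unadjusted p under 0.05, as 27 of the 240 did. For IVF against in vivo EVs 0 of 5 were called beside 0% of all, with 0 of the 5 and 39 of the 240 at an unadjusted p under 0.05. For nuclear transfer against IVF EVs 0 of 5 were called beside 1.25% of all, with 0 of the 5 and 24 of the 240 at an unadjusted p under 0.05. The 3 entries called there were of the nerve cell list and lower in nuclear transfer EVs, with 0 to 5 called under the alternatives. DESeq2 called 0 of the 5 in each of these comparisons, and limma voom called 0 in those with nuclear transfer and 2 in IVF against in vivo. The first 2 comparisons share the in vivo libraries, and each of the 3 shares its libraries with the others. In pooled vesicles, fewer vesicles with a miRNA and fewer copies in each cannot be told apart.

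Against in vivo EVs, miR-184 had the largest fitted differences of the 4, and between nuclear transfer and IVF EVs the smallest. Nuclear transfer EVs ran from 22.2 through a median of 154.9 to 10690 CPM (n = 12), against 213 through a median of 1316 to 5193 CPM (n = 6) in in vivo EVs. All but 1 of the 12 nuclear transfer libraries lay below the in vivo median, the exception being female replicate 2. The log2 difference was -1.76 (adjusted p = 0.417 by edgeR, SE 0.97), and without that library it was -3.82 with an adjusted p = 0.0222 by edgeR, past the threshold. Without in vivo male replicate 2 it was -0.60 (adjusted p = 0.828 by edgeR). IVF EVs ran from 26.0 through a median of 164 to 2564 CPM (n = 10), with 8 of the 10 below the in vivo median. The log2 difference from in vivo was -1.83 (adjusted p = 0.382 by edgeR, SE 1.07), and limma voom with quality weights gave -3.52 (adjusted p = 0.0168). Without IVF male replicate 3 the IVF difference was -3.46 (adjusted p = 0.0709 by edgeR), and without in vivo male replicate 2 it was -0.67 (adjusted p = 0.832 by edgeR). A permutation test of the mean log2 CPM, exact for both, gave p = 0.0242 for nuclear transfer and p = 0.0285 for IVF against in vivo, each with an adjusted p = 0.172 over 35 such tests. Between nuclear transfer and IVF EVs the fitted difference was 0.07 (adjusted p = 0.992 by edgeR, SE 0.93), with a 95% interval from -1.84 to 1.98.

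miR-375 had a median of 578 CPM in nuclear transfer EVs, 245 in IVF EVs and 843 in in vivo EVs. Its log2 difference was -0.56 (adjusted p = 0.659 by edgeR, SE 0.58) for nuclear transfer and -1.15 (adjusted p = 0.342 by edgeR, SE 0.63) for IVF against in vivo. By limma voom the IVF difference was -2.15 (adjusted p = 0.0226), and 8 of the 10 IVF libraries lay below the in vivo median. For nuclear transfer against IVF it was 0.59 (adjusted p = 0.704 by edgeR, SE 0.55). miR-7 had a median of 16304 CPM in nuclear transfer EVs, 34920 in IVF EVs and 12954 in in vivo EVs, and the ranges of the 3 types overlapped over most of their length. Its log2 difference was 0.30 (adjusted p = 0.839 by edgeR, SE 0.66) for nuclear transfer and 0.95 (adjusted p = 0.519 by edgeR, SE 0.71) for IVF against in vivo, and -0.65 (adjusted p = 0.694 by edgeR, SE 0.58) for nuclear transfer against IVF.

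miR-129 had a median of 3348 CPM in nuclear transfer EVs, 2189 in IVF EVs and 4357 in in vivo EVs. The log2 difference was -0.22 (SE 0.62, 95% interval -1.49 to 1.05) for nuclear transfer and -0.55 (SE 0.66, -1.90 to 0.81) for IVF against in vivo. For nuclear transfer against IVF it was 0.33 (SE 0.57, -0.84 to 1.49), and the adjusted p by edgeR was 0.854, 0.735 and 0.891 in these comparisons. Over the 4 miRNAs, miR-129 taken once, the median log2 difference was -0.39 for nuclear transfer against in vivo, -0.85 for IVF against in vivo and 0.20 for nuclear transfer against IVF, beside 0.15, 0.01 and 0.06 over all 240 entries. With the share of miR-2887 and miR-2904 as a covariate the sign of the miR-7 difference turned in all 3 comparisons (-0.35 for nuclear transfer and -0.73 for IVF against in vivo, 0.38 between them). That of miR-129 also turned in all 3 (0.51 for nuclear transfer and 0.52 for IVF against in vivo, -0.0084 between them), and that of miR-375 turned to 0.14 for nuclear transfer against in vivo. No direction between types is therefore given for miR-7 and miR-129, or for miR-375 in nuclear transfer against in vivo.

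**Figure D2:**
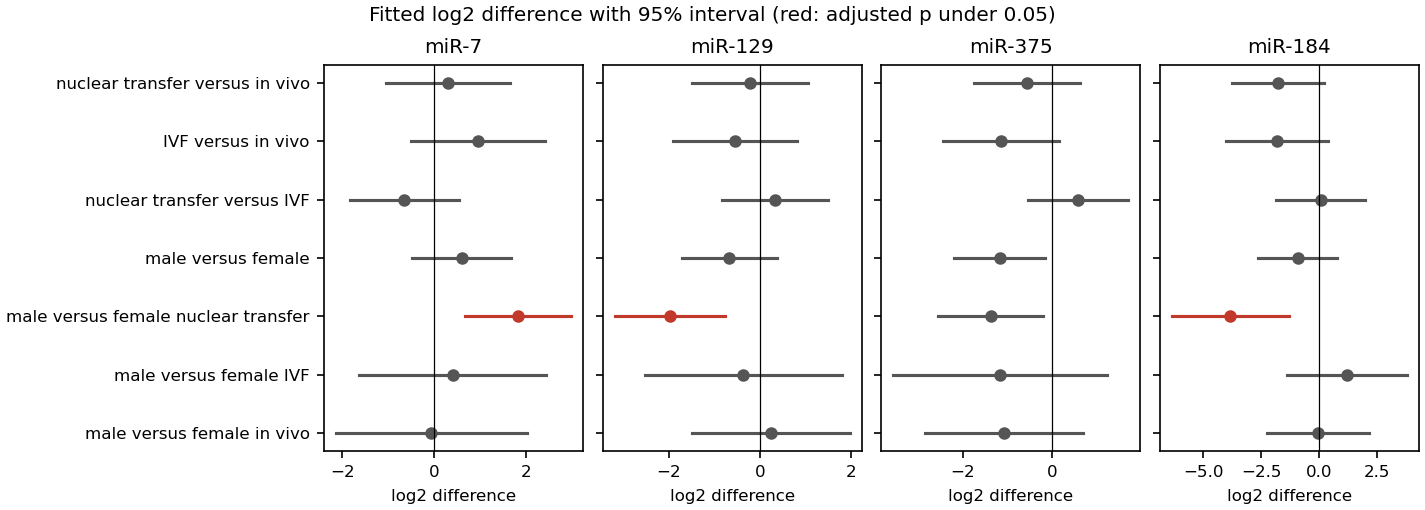
Fitted log2 difference (x axis) of each miRNA with its 95% interval in 7 comparisons, the first-named group minus the second. The red points, all in male against female nuclear transfer EVs, are the 3 with an adjusted p under 0.05 by edgeR, and the intervals between types all include 0.

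Within nuclear transfer EVs, edgeR called miR-7 higher and miR-129 lower in males than in females. Both calls were lost under some of the alternatives given below. miR-184 was called lower through 1 female library, and miR-375 missed the threshold. The fit used the 12 nuclear transfer libraries alone, in which 180 entries passed the filter. Of the 5 entries, 4 were called, which are 3 of the 4 miRNAs, beside 22.2% of all entries tested (13.3% higher and 8.89% lower in males). Called entries were therefore common in this comparison, and 66 of the 180 had an unadjusted p under 0.05. miR-7 averaged 37936 ± 25867 CPM (SD, n = 7) in males and 11282 ± 5706 CPM (SD, n = 5) in females, a log2 difference of 1.83 (adjusted p = 0.0271 by edgeR, SE 0.55) or 3.56-fold, with 5 of 7 males above the female median. miR-129 averaged 1991 ± 1381 CPM in males and 9271 ± 6046.2 CPM in females, and fell by 1.98 on the log2 scale (adjusted p = 0.0266 by edgeR, SE 0.58), with 7 of 7 males below the female median. miR-184 averaged 186 ± 227 CPM in males and 2283 ± 4701 CPM in females, a log2 difference of -3.83 (adjusted p = 0.0311 by edgeR, SE 1.196). miR-375 averaged 350.0 ± 250.2 CPM in males and 1034 ± 372 CPM in females, with a log2 difference of -1.37 (adjusted p = 0.0832 by edgeR, SE 0.56).

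The miR-184 call rested on nuclear transfer female replicate 2: without it the log2 difference was -0.31 (adjusted p = 0.798 by edgeR). It was also lost without male replicate 1, 4 or 5, where the difference kept its size at -3.86, -3.84 and -3.83 (adjusted p = 0.0667, 0.0633 and 0.0576 by edgeR), and by limma voom (-0.86, adjusted p = 0.576), while DESeq2 gave no adjusted p for it. The miR-7 call was lost without male replicate 1, 3 or 6 or female replicate 2, 3, 4 or 5, at log2 differences of 1.45 to 1.87 and an adjusted p = 0.0523 to 0.0791 by edgeR. The miR-129 call was lost without male replicate 3, male replicate 4 or female replicate 3, at -1.82, -1.83 and -1.64 (adjusted p = 0.0543, 0.0514 and 0.0681 by edgeR). miR-375 came to be called without male replicate 2 (-1.97, adjusted p = 0.0287 by edgeR) or female replicate 2 (-1.84, adjusted p = 0.0342 by edgeR), and by limma voom (-1.95, adjusted p = 0.0138). Taken as a contrast in the fit of all 28 libraries, 0 of the 5 entries were called: miR-7 was at 1.75 (adjusted p = 0.132 by edgeR), miR-129 at -2.22 (adjusted p = 0.0555 by edgeR) and miR-184 at -3.64 (adjusted p = 0.0563 by edgeR). An exact permutation test of the mean log2 CPM gave p = 0.0328 for miR-7, p = 0.0101 for miR-375, p = 0.00505 for miR-129 and p = 0.311 for miR-184, with adjusted p-values of 0.172, 0.118, 0.0884 and 0.579 over 35 tests. Sex and donor cell of the nuclear transfer conceptuses cannot be told apart, because no label gives the donor cells.

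**Figure D3:**
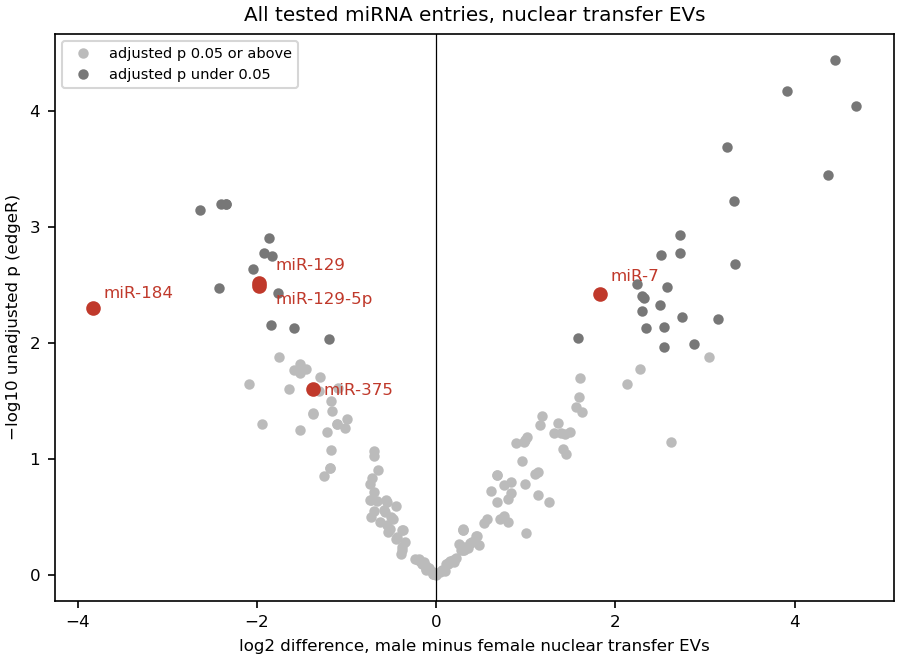
Log2 difference between male and female nuclear transfer EVs (x axis, male minus female) against −log10 of the unadjusted p by edgeR (y axis) for the 180 entries tested. The red points are the 5 entries described here: miR-7 lies on the side higher in males, the others on the side lower in males, among 24 higher and 16 lower entries called.

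The share of counts held by miR-2887 and miR-2904 moved with this difference. It was 30.3 to 59.4% with a median of 44.6% in nuclear transfer males, against 5.17 to 44.5% with a median of 24.4% in nuclear transfer females. Of its 2 entries, miR-2904 was called higher in males, at 1.58 (adjusted p = 0.0436 by edgeR, SE 0.54). The other, miR-2887, was at 0.99 (adjusted p = 0.157 by edgeR) and was not called. With the share as a covariate, miR-7 was at 0.33 (adjusted p = 0.751 by edgeR) and miR-129 at -0.71 (adjusted p = 0.636 by edgeR), and 1 entry of all tested was called, miR-184. Between 30.3 and 44.5% lay male replicates 2, 6 and 7 and female replicates 1 and 2, a range chosen after seeing the data. Among these 5 libraries the difference in mean log2 CPM was 0.57 for miR-7, -1.03 for miR-375, -0.88 for miR-129 and -4.83 for miR-184, with no test. Without male replicate 6 they were 0.0015 for miR-7, -0.072 for miR-375, -0.31 for miR-129 and -4.42 for miR-184. Without female replicate 2, which leaves 1 female, they were 0.28, -1.58, -1.17 and -2.28 in the same order. Over all 12 libraries the difference in mean log2 CPM was 1.61 for miR-7, -1.74 for miR-375, -2.32 for miR-129 and -1.50 for miR-184. Among the 5 libraries, the differences of miR-7 and miR-375 rested on male replicate 6. The part of the share in the differences between the sexes was not tested with these libraries.

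In IVF and in vivo EVs no entry passed the test between the sexes. For male against female IVF EVs 0 of 5 entries were called beside 0% of the 200 tested, with 0 of the 5 and 1 of the 200 at an unadjusted p under 0.05. For male against female in vivo EVs 0 of 5 were called beside 0% of the 154 tested, with 0 of either at an unadjusted p under 0.05. DESeq2 and limma voom called 0 entries in both. miR-7 differed by 0.41 (SE 0.94, 95% interval -1.63 to 2.44) in IVF and -0.06 (SE 0.99, -2.14 to 2.02) in in vivo EVs. miR-129 differed by -0.37 (SE 1.00, -2.54 to 1.79) in IVF and 0.24 (SE 0.82, -1.49 to 1.97) in in vivo EVs. For miR-7 both intervals, and for miR-129 the IVF interval, hold 0 as well as the difference fitted in nuclear transfer EVs, while the in vivo interval of miR-129 does not reach -1.98. miR-184 differed by 1.19 (adjusted p = 1.00 by edgeR, SE 1.19) in IVF EVs, where the 170 counts of male replicate 3 were 88.1% of the male counts, and by -0.05 (adjusted p = 0.999 by edgeR, SE 1.05) in in vivo EVs.

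miR-375 had a negative fitted difference between males and females in each type, at -1.37 in nuclear transfer, -1.17 (adjusted p = 1.00 by edgeR, SE 1.10) in IVF and -1.08 (adjusted p = 0.999 by edgeR, SE 0.84) in in vivo EVs. Over the 3 types, males ran from 64.9 through a median of 304 to 1165 CPM (n = 13), against 107 through a median of 811 to 2058 CPM (n = 15) in females. The groups overlapped through most of their range, with 12 of 13 males below the female median. The log2 difference was -1.17 (adjusted p = 0.694 and unadjusted p = 0.0254 by edgeR, SE 0.50), the fifth smallest p of the 240 entries. For the comparison of the sexes over all types 0 of 5 entries were called beside 0% of all, with 1 of the 5, miR-375, and 9 of the 240 at an unadjusted p under 0.05, and DESeq2 and limma voom called 0. miR-7 was at 0.60 (SE 0.53), miR-129 at -0.67 (SE 0.51) and miR-184 at -0.92 (SE 0.83) in the same contrast. The median share of miR-2887 and miR-2904, with which miR-375 fell (r = -0.78), was also higher in males in each type. It was 44.6 against 24.4% in nuclear transfer, 62.5 against 48.1% in IVF and 25.2 against 17.0% in in vivo EVs. With the share as a covariate, miR-375 between the nuclear transfer sexes was at -0.85 (adjusted p = 0.636 by edgeR). The part of the share in the other differences of this paragraph was not tested.

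Whether the sex difference depended on conceptus type was tested directly, and no entry passed. The type by sex interaction called 0 of 5 entries beside 0% of all by edgeR, with 1 of the 5, miR-184 (unadjusted p = 0.0313, adjusted p = 0.323), and 35 of the 240 at an unadjusted p under 0.05. Its adjusted p by edgeR was 0.614 for miR-7, 0.985 for miR-375 and 0.371 for miR-129. The sex difference of miR-129 in nuclear transfer EVs less that in in vivo EVs was -2.66 (adjusted p = 0.257 and unadjusted p = 0.0451 by edgeR, SE 1.27). That of miR-184 in nuclear transfer less that in IVF EVs was -4.82 (adjusted p = 0.423 and unadjusted p = 0.0106 by edgeR, SE 1.76), and it contains nuclear transfer female replicate 2. For miR-7 the corresponding values were 1.98 (adjusted p = 0.376 by edgeR, SE 1.33) against in vivo and 1.47 (adjusted p = 0.616 by edgeR, SE 1.21) against IVF. The calls made in nuclear transfer EVs are therefore not shown to be particular to that type.

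The other arm of the miR-129 hairpin, miR-129-3p, was counted apart and held 333 counts in the 28 libraries, at 0 to 68 a library. In nuclear transfer males it stood at 0, 69.2, 14.1, 69.4, 66.3, 33.2 and 36.4 CPM in replicates 1 to 7, and in nuclear transfer females at 81.0, 123.6, 127.5, 177 and 100.3 CPM in replicates 1 to 5. Male libraries held 0 to 13 counts of it and female ones 6 to 68, and in CPM the groups did not overlap. How many other entries separate these groups was not counted, so the separation is not read as a trait of this arm. In this comparison edgeR called 22.2% of all entries tested. The 3p arm was too low for the filter in the nuclear transfer fit. An exact permutation test of the mean log2 CPM gave a difference of -1.48 and an unadjusted p = 0.00253. That is the smallest p that 7 against 5 libraries allow, and any entry with separated groups gives it. The 5p arm outnumbered the 3p arm in all 28 libraries, by a median ratio of 46.0 in nuclear transfer males and 59.9 in nuclear transfer females. The difference of that ratio between the sexes, -0.50 on the log2 scale, had p = 0.346 by an exact permutation test, adjusted p = 0.720. By these values both arms were lower in nuclear transfer males, and a change of their ratio was not detectable at this depth. The share of miR-2887 and miR-2904 was not taken into account for miR-129-3p. With that share as a covariate, miR-129 was at -0.71 (adjusted p = 0.636 by edgeR).

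**Figure D4:**
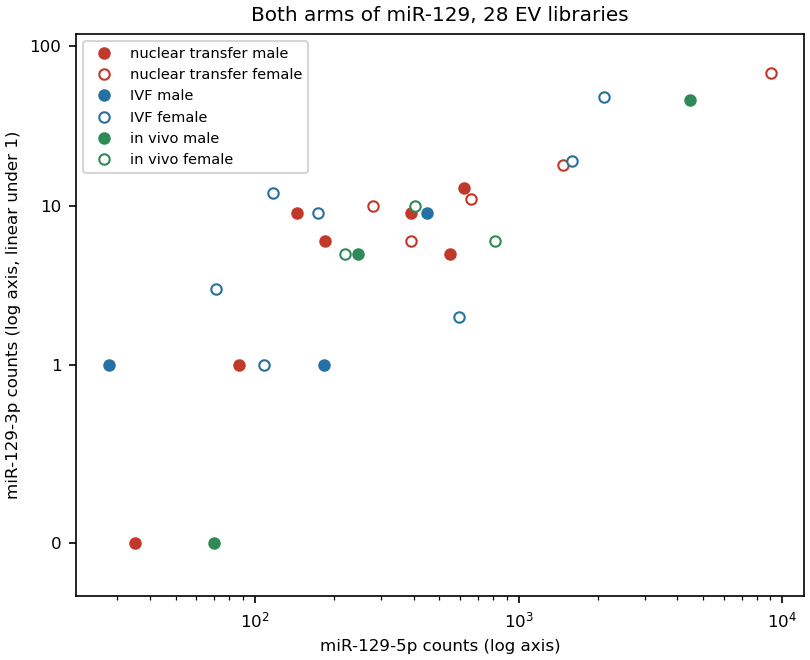
Counts of miR-129-3p (y axis, log scale, linear under 1) against counts of miR-129-5p (x axis, log scale) in the 28 EV libraries, coloured by type and filled for males. The 5p arm is the more abundant in every library, and the libraries with no miR-129-3p count are 1 nuclear transfer male and 1 in vivo male with few miR-129-5p counts.

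Across libraries miR-375 and miR-129 went together and miR-7 went the other way, while miR-184 stood apart from all 3. Over the 28 libraries the log2 CPM of miR-375 and miR-129 had a Pearson r of 0.78 and a Spearman rho of 0.82, with r = 0.78 without the 2 libraries farthest from the median of miR-375. miR-7 and miR-375 had r = -0.80 and rho = -0.81 (r = -0.79 without the 2 farthest), and miR-7 and miR-129 had r = -0.80 and rho = -0.81 (r = -0.84 without the 2 farthest). Each had a permutation p = 1e-05, the smallest that 100000 resamples give, and an adjusted p = 1.7e-05 over 10 relations. Within the 12 nuclear transfer libraries r was 0.82 for miR-375 with miR-129, -0.74 for miR-7 with miR-375 and -0.96 for miR-7 with miR-129, and within the 6 in vivo libraries it was 0.56, -0.88 and -0.61. The 10 IVF libraries fell into 4 with a miR-2887 and miR-2904 share of 8.80 to 24.0% and 6 with 48.1 to 76.3%, so no coefficient is given within them. miR-184 had r = -0.15 with miR-7 (permutation p = 0.435), 0.30 with miR-375 (p = 0.124) and 0.13 with miR-129 (p = 0.494). All values of a library share its total, and the part of this in these relations was not tested.

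The level of 3 of the 4 miRNAs followed the share of counts held by miR-2887 and miR-2904. The share had r = 0.86 and rho = 0.83 with miR-7, r = -0.80 and rho = -0.83 with miR-129 and r = -0.78 and rho = -0.80 with miR-375, each with a permutation p = 1e-05 (adjusted p = 1.7e-05 over 10 relations). Without the 2 libraries farthest from the median these were r = 0.86, -0.83 and -0.79. Within nuclear transfer EVs r was 0.90, -0.91 and -0.72, and within in vivo EVs 0.78, -0.93 and -0.69, for miR-7, miR-129 and miR-375 in that order. miR-184 had r = -0.21 and rho = -0.27 (permutation p = 0.282 for r). miR-7 was thus higher, and miR-129 and miR-375 lower, where the share was high.

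**Figure D5:**
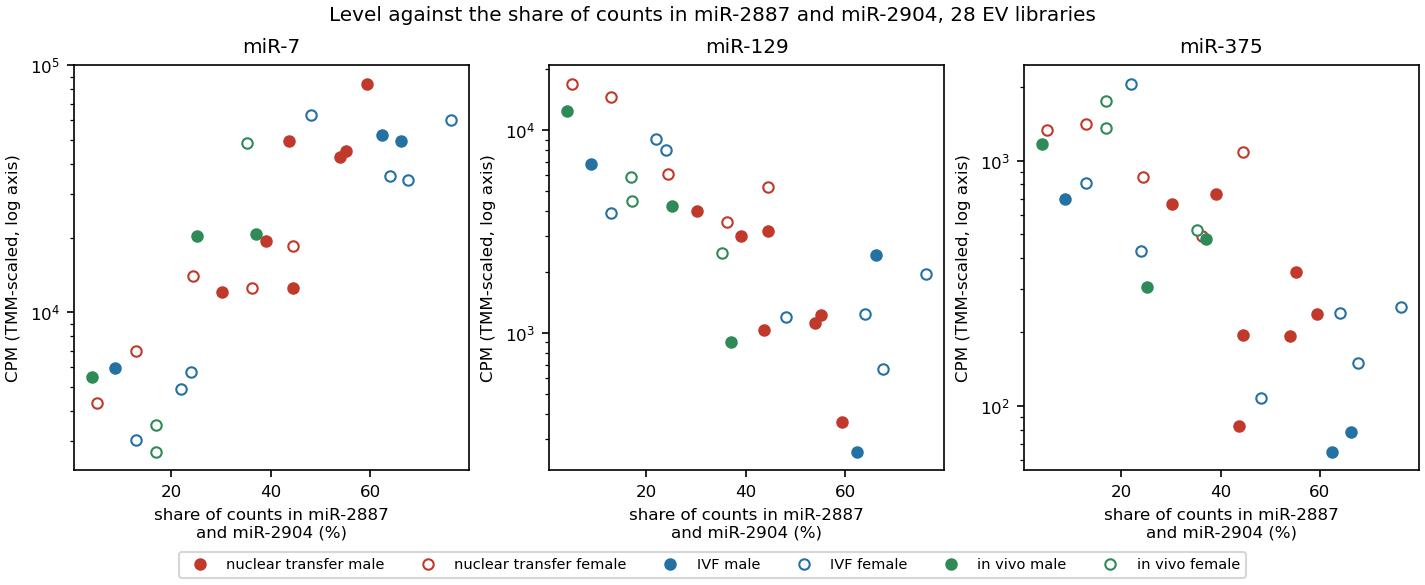
Level of miR-7, miR-129 and miR-375 in CPM (TMM-scaled, log axis) against the percentage of a library's counts held by miR-2887 and miR-2904 (x axis), 1 point a library. miR-7 is higher at higher shares (r = 0.86) while miR-129 (r = -0.80) and miR-375 (r = -0.78) are lower, with libraries of all 3 types along each slope.

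Ratios of counts within a library need no scaling between libraries, and the following were chosen after seeing the data. They were not adjusted for the share of miR-2887 and miR-2904, with which miR-7 rose while miR-129 and miR-375 fell. The ratio of miR-129 to miR-7 in nuclear transfer males was 0.00438 to 0.333 with a median of 0.0272, against 0.281 to 3.96 with a median of 0.436 in nuclear transfer females. Every male lay below the female median, and the groups overlapped between 0.281 and 0.333. The log2 difference was -3.94 (p = 0.0101 by an exact permutation test, adjusted p = 0.141 over 28 such tests). The ratio of miR-375 to miR-7 was 0.00173 to 0.0552 in nuclear transfer males and 0.0399 to 0.311 in nuclear transfer females, a log2 difference of -3.40 (p = 0.00505 by an exact permutation test, adjusted p = 0.141). The ratio of miR-129 to miR-375 had a median of 5.71 in nuclear transfer males and 7.07 in nuclear transfer females, with a log2 difference of -0.54 (exact permutation p = 0.359, adjusted p = 0.720).

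Among the other 235 entries tested, the pattern of miR-7 over the 28 libraries was most like those of miR-2440 (rho = 0.91), miR-6119-5p (rho = 0.89) and miR-2463 (rho = 0.87) by Spearman correlation of log2 CPM. For miR-375 they were let-7c (rho = 0.87), miR-10a (rho = 0.85) and let-7a-5p (rho = 0.84). For miR-129 they were miR-10a (rho = 0.92), the epithelial miR-200c (rho = 0.92) and let-7a-5p (rho = 0.91), while its own other arm, miR-129-3p, came 22nd at rho = 0.74. The likeness of miR-184 was weaker, at 0.64 for miR-99a-5p, 0.63 for miR-3432a and 0.62 for miR-128, a miRNA of neurons. miR-375 and miR-129 thus shared miR-10a and let-7a-5p among their closest entries, and let-7c, the closest to miR-375, was the entry least like miR-7 (rho = -0.86). Over the same libraries miR-7, miR-129 and miR-375 followed the share of miR-2887 and miR-2904 (r = 0.86, -0.80 and -0.78). The part of that share in these likenesses was not tested.

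The other miRNAs of nerve cells and epithelia were set beside these in male against female nuclear transfer EVs, where 22.2% of all entries tested were called. With the share of miR-2887 and miR-2904 as a covariate, none of the calls of this paragraph was made, since miR-184 was then the 1 entry called. Of the 16 nerve cell entries 4 were tested, and 1 rose, miR-9-3p, at a log2 difference of 2.87 (adjusted p = 0.0475 by edgeR, SE 1.00), with a list median of 0.12 beside 0.05 over all 180 entries. Of these 4, 2 differences were positive and 2 negative, and the other arm, miR-9, was at 0.36 (adjusted p = 0.709 by edgeR). Of the 10 epithelial entries 8 were tested, and 1 fell, miR-200c, by 1.93 (adjusted p = 0.0201 by edgeR, SE 0.52), with a list median of -0.71. The epithelial entries together held 0.489 to 3.52% of the counts (median 1.73%) in nuclear transfer males, against 2.00 to 9.38% (median 3.44%) in nuclear transfer females. Those of nerve cells held 0.599 to 1.93% (median 1.09%) in males and 0.752 to 3.13% (median 0.798%) in females. Of the miR-302 and miR-371 clusters of pluripotent cells, 3 of 4 tested entries rose, namely miR-302b by 2.75 (SE 0.88), miR-302a by 3.15 (SE 1.01) and miR-371 by 3.91 (SE 0.76). They held 0.0451 to 0.544% of the counts in males and 0.0124 to 0.127% in females. All these percentages are of total counts, miR-2887 and miR-2904 included. Those 2 entries held a median of 44.6% in nuclear transfer males and 24.4% in females, which leaves a smaller part for all other entries in males. No entry of the lists for blood cells (7 tested), muscle (3 tested), mesenchyme and vessels (5 tested) or liver (1 tested) was called. The part of these other sources in the differences of miR-7, miR-129 and miR-375 was not tested.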

How the data were processed

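Small RNA of conceptus EVs was sequenced in 28 libraries, each from a different animal per the labels. The authors deposited whole counts of reads per miRNA entry, not normalized. Cutadapt, STAR, featureCounts, Bowtie and DESeq2 are named as tools and ARS-UCD1.2 as the build, per the submitters' processing notes. Their versions and roles, the annotation and the handling of reads that match several entries are not given in the sources used. Per the labels' protocols, libraries were selected for short inserts, which can change which small RNAs are seen. The labels give Bos indicus as the organism, while the series' design text calls the conceptuses Bos taurus taurus. The endometrium table of the series was not used here, and no column of the EV table was left out.

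Groups are conceptus type by sex, from the sample titles. The test was that of edgeR 4.0.16, run in R 4.3.3: TMM scaling, filterByExpr (minimum count 10, minimum total 15), quasi-likelihood F test, two-sided, Benjamini-Hochberg adjustment over all entries tested, threshold 0.05. Comparisons of types, of the sexes over all types and the interaction came from 1 fit of 6 group means over 28 libraries, a type difference being averaged over the sexes. Sex within a type was fitted on the libraries of that type alone. Log2 CPM used a prior count of 2 and count ratios a pseudocount of 0.5. Intervals are at 95%. Permutation tests were two-sided and exact, with 100000 resamples where both groups held 10 or more libraries and for correlations. Between types they pooled the sexes, so the unlike mix of males and females in the types enters those differences. The scripts were tested on simulated data.

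The miRNAs, the lists and the tests were chosen with earlier results of these data known. The entries named are the 5 described, the other arm of a hairpin, the 3 entries most like each by rank correlation, and list members past the threshold. List members called in nuclear transfer against IVF EVs are given as a count only. Alternatives were other size factors, other filters, DESeq2 1.42.0, limma 3.58.1 voom with quality weights, leaving out miR-2887 and miR-2904 or using their share as a covariate, the miR-129 entries merged, a permutation test and leaving out each library.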

Additional observations from a re-analysis of the deposited data

Results flagged for a closer look

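In groups of 5 and 7 libraries, a single library stood apart from the others of its group in 4 of 12 combinations of miRNA and group looked at, measured on CPM. On log2 CPM, the scale of the other comparisons, 0 of the 12 stood apart. A rate of about 1 in 20 by chance holds for normally distributed values and was not checked for CPM. In nuclear transfer female EVs, replicate 2 held 10690 CPM of miR-184, the next highest library 297 CPM. In nuclear transfer male EVs, replicate 3 held 675 CPM of miR-184, the next 207 CPM. In IVF female EVs, replicate 4 held 1813 CPM of miR-184, the next 493.2 CPM. Also in IVF female EVs, replicate 7 held 2058 CPM of miR-375, the next 811 CPM. Of the 4, 3 concern miR-184, in different groups.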

How the results depend on the processing

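No alternative turned the sign of miR-7, miR-375 or miR-129 in male against female nuclear transfer EVs, or of miR-184 there. Of the 5 entries, 4 called in that comparison became 1 with the share of miR-2887 and miR-2904 as a covariate, 0 as a contrast in the fit of all 28 libraries, 0 by the permutation test of log2 CPM, and 1 to 5 with 1 library left out. The 40 entries called in all became 63 with no low count filter, 1 with the share as a covariate, 20 in the fit of all 28 libraries and 16 to 50 with 1 library left out. With miR-2887 and miR-2904 left out, 4 of the 5 entries and 40 of 176 tested were called. In that fit miR-7 was at 1.82 and miR-129 at -1.95. For IVF against in vivo EVs limma voom called 2 of the 5 (miR-375 and miR-184), and for nuclear transfer against in vivo EVs leaving out 1 library gave 0 to 1. The cause of these changes was not tested.

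Replicate numbers are shared between groups in the labels but each library came from its own animal. Over 53 pairs of the same number the median correlation of deviations was 0.00739, and 4 of the 28 libraries correlated best with their own number, so the numbers do not pair the libraries. With a replicate block 3 of the 5 entries and 41 entries in all were called between the nuclear transfer sexes, miR-184 being at -0.17 (adjusted p = 0.909 by edgeR).

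Differences that were not called turned sign as follows, on the log2 scale. With the share as a covariate, nuclear transfer against in vivo was -0.35 for miR-7, 0.14 for miR-375 and 0.51 for miR-129, and IVF against in vivo was -0.73 for miR-7 and 0.52 for miR-129. In the same fit nuclear transfer against IVF was 0.38 for miR-7, -0.0084 for miR-129 and -0.24 for miR-184, and the in vivo sex difference was 0.82 for miR-7 and -0.15 for miR-129. The sex difference in nuclear transfer less that in in vivo was -0.083 for miR-7 and 0.30 for miR-375 there, and less that in IVF it was -0.14 and 0.72. With limma voom, miR-129 was 0.11 for nuclear transfer against in vivo and -0.89 between the in vivo sexes, miR-7 was 1.68 between the in vivo sexes, and miR-184 was -1.06 between the IVF sexes and 0.017 for the sex difference in nuclear transfer less that in IVF. With a replicate block, miR-184 was -0.32 for nuclear transfer against IVF, and between the in vivo sexes miR-7 was 0.59 and miR-129 -0.19. miR-129 between the IVF sexes was 0.027 with DESeq2 and 0.026 with its size factors in edgeR. By mean log2 CPM with the sexes pooled, nuclear transfer against IVF was 0.0078 for miR-7 and -0.27 for miR-184. By mean log2 CPM the in vivo sex difference was 0.77 for miR-7 and -0.16 for miR-129.

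With 1 library left out, miR-7 ranged from -0.11 to 1.39 for nuclear transfer against in vivo, from -0.038 to 0.91 between the IVF sexes, from -0.76 to 2.35 between the in vivo sexes, and from -0.46 to 2.52 for the sex difference in nuclear transfer less that in in vivo. miR-375 ranged from -1.002 to 0.30 for that last contrast and from -1.28 to 1.43 for the one against IVF. miR-129 ranged from -0.62 to 0.21 for nuclear transfer against in vivo, -1.24 to 0.000515 for IVF against in vivo, -0.067 to 0.95 for nuclear transfer against IVF, -1.56 to 0.095 between the IVF sexes and -0.63 to 1.06 between the in vivo sexes. miR-184 ranged from -1.85 to 1.59 for nuclear transfer against IVF, -1.89 to 0.34 between the sexes over all types, -1.72 to 2.29 between the IVF sexes, -2.81 to 0.63 between the in vivo sexes and -4.35 to 0.28 for the sex difference in nuclear transfer less that in in vivo. Counts of 2 to 865 for miR-184 and 6 to 709 for miR-375 limit what these libraries can show.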
